A study of Mus musculus with 6 samples.

Results

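The genes of the core transforming growth factor beta (TGF-beta) pathway followed here in WT and Ythdf2-KO mouse melanoma cells were the ligand genes Tgfb1, Tgfb2 and Tgfb3, the receptor genes Tgfbr1, Tgfbr2 and Tgfbr3, and the SMAD genes Smad2, Smad3, Smad4 and Smad7. They were taken by symbol from a count table of 56734 genes, and all 10 had enough counts to be tested, among 17718 tested genes. The cells were B16-OVA, a B16 melanoma derivative that carries chicken ovalbumin as a model antigen, grown in serum-containing medium. There were 3 libraries of polyadenylated RNA from WT cells and 3 from Ythdf2-KO cells. The WT titles carry the tag gNC, which the labels do not explain. Whether the Ythdf2-KO cells were 1 clone or a pool, and whether replicates were separate cultures, is not given in the sources used here. The p-values therefore measure the spread between these libraries, which may be technical.

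TGF-beta is secreted as a latent dimer bound to its own propeptide, and must be released from matrix or cell-surface carriers before it can signal. The active ligand brings together the receptor kinases TGFBR2 and TGFBR1, while the co-receptor TGFBR3 (betaglycan) presents ligand, TGF-beta 2 above all. TGFBR1 then phosphorylates SMAD2 and SMAD3, which enter the nucleus with SMAD4, and one of the genes they switch on, Smad7, encodes an inhibitor that turns the receptors off. In melanoma and other tumors the pathway is known for effects on invasion and for suppressing immune cells. YTHDF2 is a cytoplasmic reader of N6-methyladenosine (m6A) in mRNA that promotes decay of the mRNAs it binds.

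The libraries held 55660473 to 69497273 counts. Ythdf2 mRNA itself stood at 124, 124 and 125 CPM (counts per 1e+06 counts, scaled by TMM factors) in the WT libraries and at 100.1, 101 and 104 CPM in Ythdf2-KO, a log2 difference of -0.29 ± 0.026 (SE; edgeR adjusted p = 4.08e-13). Gene counts do not show the edit. All 10 melanoma lineage markers looked at were detected and were higher in Ythdf2-KO, with sums of 1442 to 1469 CPM in WT and 3123 to 3146 CPM in Ythdf2-KO. Of 10 leukocyte markers 3 had enough counts to be tested, and their sum was 0.977 to 1.31 CPM in WT and 0.891 to 2.37 CPM in Ythdf2-KO. Ptprc had 74 counts in Ythdf2-KO replicate 3 and 0 to 6 in the others. Of 8 endothelial and epithelial markers 2 were tested, with sums of 2.69 to 2.71 CPM in WT and 2.15 to 2.31 CPM in Ythdf2-KO. Mitochondrial transcripts took 1.08 to 1.33% of counts in WT and 1.57 to 1.82% in Ythdf2-KO. What part these marker and mitochondrial differences had in the results was not tested. In RNA from a whole culture, fewer cells of a kind and less RNA per cell cannot be told apart.

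The pathway's members differed unevenly when Ythdf2-KO was compared with WT. The co-receptor gene Tgfbr3 and the inhibitor gene Smad7 fell most, 1.74-fold and 1.63-fold. Tgfb1 fell 1.18-fold, whereas Tgfb2 rose 1.41-fold and Tgfb3 rose 1.16-fold. Tgfbr1 and Smad4 fell slightly, and Tgfbr2, Smad2 and Smad3 did not pass the test. In all, 2 of 10 members were called higher and 5 lower at an edgeR adjusted p under 0.05. Differences were common throughout these data: 49.9% of all tested genes were called, 24.1% higher and 25.8% lower. That background includes genes with few counts. With a filter at a mean of 5 CPM the share called was larger: 3410 of 10507 tested genes were higher and 3524 lower. Of the 9 members left by that filter, 2 were called higher and 5 lower. The 3 WT and 3 Ythdf2-KO libraries did not overlap for 7 members, against 55.9% of tested genes. The median log2 fold change was -0.036 over the members and -0.0053 over all tested genes.

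**Figure D1:**
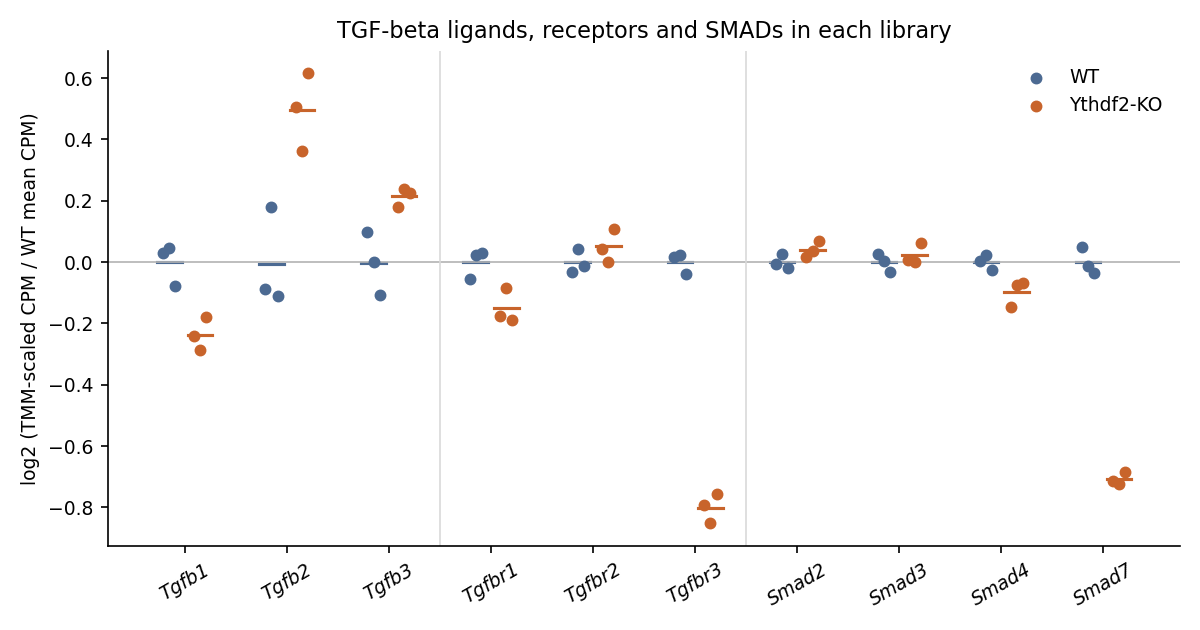
Level of each gene in each library, as the log2 ratio of TMM-scaled CPM to the WT mean; points are libraries, short lines the mean of 3, and grey lines separate ligands, receptors and SMADs. Tgfbr3 and Smad7 lie far below their WT libraries in all 3 Ythdf2-KO libraries, and Tgfb2 lies above.

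The ligands differed in level and in direction. The letters before the start sites of Tgfb1 and Tgfb2 are shown first because these ligands were at the opposite ends of the level range and moved in opposite directions. Each window holds the 250 bases upstream of the start, 5′ to 3′ on the gene's strand, from RefSeq on GRCm38.p6; that of Tgfb1 lies at chr7:25686752-25687001 (plus strand) and that of Tgfb2 at chr1:186705990-186706239 (minus strand). Capitals mark motifs searched for on both strands.
Tgfb1: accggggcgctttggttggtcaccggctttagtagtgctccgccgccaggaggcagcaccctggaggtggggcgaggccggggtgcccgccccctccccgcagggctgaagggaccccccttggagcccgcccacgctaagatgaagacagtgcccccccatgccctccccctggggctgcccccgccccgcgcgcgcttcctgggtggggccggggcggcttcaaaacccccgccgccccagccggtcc
Tgfb2: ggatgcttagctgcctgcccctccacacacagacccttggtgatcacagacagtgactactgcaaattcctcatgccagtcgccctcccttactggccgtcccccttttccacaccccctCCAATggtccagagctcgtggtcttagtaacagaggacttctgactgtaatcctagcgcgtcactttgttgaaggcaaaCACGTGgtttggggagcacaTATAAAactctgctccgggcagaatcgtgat
The Tgfb2 window held CCAAT, the E-box CACGTG and the TATA box TATAAA, which do not overlap one another. Of 32851 such windows in the table, 33.8% held CCAAT, 6.02% CACGTG and 12.4% TATAAA. None of these, nor the AP-1 site TGACTCA (4.46% of windows), the cAMP response element TGACGTCA (1.55%), CATGTG (12.3%) or the palindromic SMAD element GTCTAGAC (0.167%), was found in the Tgfb1 window. The Tgfb1 window held 21 CpG dinucleotides and that of Tgfb2 8, with a median of 6 over all windows. A match is a match of letters only, and windows for 5 of the 10 genes were used.

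Tgfb1, the most widely expressed of the ligands, gave 144, 146 and 134 CPM in WT replicates 1 to 3, with 119, 116 and 125 in the Ythdf2-KO replicates. Every Ythdf2-KO library was below every WT library. The log2 fold change of Tgfb1 was -0.24 ± 0.031 (SE, n = 3 a genotype; edgeR adjusted p = 1.43e-07), and the call was kept in all 17 alternative analyses, over which it ranged from -0.30 to -0.18.

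Tgfb2, the ligand that depends most on betaglycan for binding, was at 3.62, 4.35 and 3.56 CPM in the WT libraries, and at 5.46, 4.94 and 5.89 in those with Ythdf2-KO. All 3 Ythdf2-KO libraries were above the WT libraries, the nearest pair being 4.94 and 4.35 CPM. It rose by a log2 fold change of 0.50 ± 0.11 (SE; edgeR adjusted p = 2.60e-04), from 201 to 285 counts per library in WT to 305 to 408 in Ythdf2-KO. Its interval, 0.27 to 0.73, was the widest of the 10 members.

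Tgfb3 rose less, from 32.3, 30.2 and 28.0 CPM in WT to 34.1, 35.6 and 35.3 CPM in Ythdf2-KO. The groups did not overlap, but WT replicate 1 came within 2 CPM of the lowest Ythdf2-KO library. The log2 fold change was 0.22 ± 0.046 (SE; edgeR adjusted p = 1.02e-04). Exons of Tgfb3 share 7.60% and 4.82% of their bases with the opposite-strand genes Gm48008 and Gm37804 in GENCODE M21, and the counts may not be by strand; both genes were at or below 0.029 CPM in the mean of either genotype.

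The ligand shares followed these directions. Per kb of the longest coding transcript, which allows levels of different genes to be compared, Tgfb1 made up 86.6, 87.3 and 87.3% of the 3 ligands in WT and 83.1, 82.2 and 83.2% in Ythdf2-KO. Tgfb3 went from 11.9 ± 0.465% to 15.6 ± 0.617%, and Tgfb2 from 1.01 ± 0.0926% to 1.59 ± 0.0913% (SD, n = 3). No share overlapped between the genotypes. The exact two-sided permutation p was 0.1 for each, the smallest that 3 against 3 libraries allow, or 0.133 after Benjamini-Hochberg adjustment over the 4 ratios and shares compared. Tgfb1 therefore remained the main ligand transcript in both genotypes, with a difference (Ythdf2-KO minus WT) of -4.20 percentage points. Per kb of all exon bases, a length chosen after seeing the data, the difference was -6.72 points. The shares themselves moved with that length: Tgfb1 made up 74.5% in WT and 67.8% in Ythdf2-KO, and Tgfb3 23.7% and 29.5%.

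**Figure D2:**
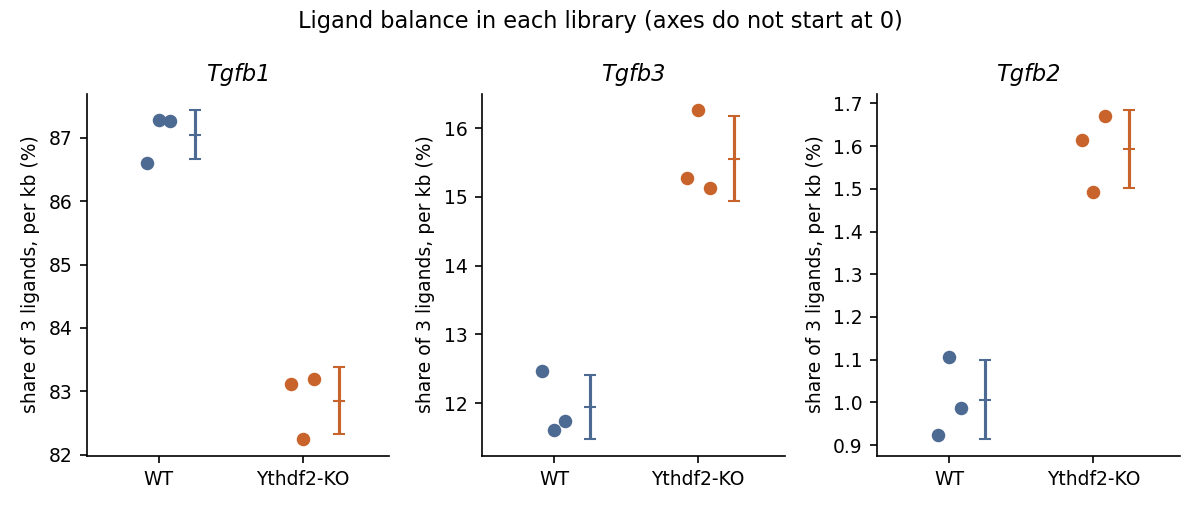
Share of each ligand gene in the summed level of Tgfb1, Tgfb2 and Tgfb3 per kb of transcript, in percent; points are libraries and bars the mean ± SD of 3, on axes that do not start at 0. The Tgfb1 share is 82.2 to 83.2% in Ythdf2-KO and 86.6 to 87.3% in WT, and both other shares are higher in Ythdf2-KO.

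Among the receptors, Tgfbr3 changed most. It stood at 166, 166 and 159 CPM in the WT libraries, and at 94.5, 90.8 and 96.9 in those with Ythdf2-KO, with a wide gap between the groups. The log2 fold change was -0.80 ± 0.027 (SE; edgeR adjusted p = 4.42e-28), and its size exceeded that of 86.3% of tested genes. An overlapping gene on the same strand, Gm43422, covers 4.54% of the Tgfbr3 exon bases and averaged 0.361 CPM in the WT libraries and 0.211 CPM in the others.

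The signaling receptors changed little. Tgfbr1, the kinase that phosphorylates SMAD2 and SMAD3, went from 27.6, 29.1 and 29.3 CPM in WT to 25.4, 27.0 and 25.2 CPM, a log2 fold change of -0.15 ± 0.048 (SE; edgeR adjusted p = 0.00789). The groups were separated by less than 1 CPM. Its call was lost with upper-quartile scaling, where the value was -0.096, and without replicate 3 of both genotypes, where it was -0.12. Tgfbr2, the ligand-binding kinase, was at 93.7, 98.7 and 94.9 CPM in the WT libraries, and at 98.8, 95.8 and 103 in those with Ythdf2-KO, and the groups overlapped. Its log2 fold change of 0.052 (95% interval -0.0078 to 0.11) did not pass in edgeR (adjusted p = 0.149). It passed as higher with upper-quartile scaling (0.11), a filter at a mean of 5 CPM (0.076) and without WT replicate 2 (0.085).

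Among the SMADs, the inhibitory gene Smad7 changed most. It fell from 69.8, 66.9 and 65.8 CPM in WT to 41.2, 40.9 and 42.0 CPM in Ythdf2-KO, 2 groups far apart with little spread within either. Its log2 fold change was -0.71 ± 0.035 (SE; edgeR adjusted p = 8.40e-22), larger in size than that of 83.9% of tested genes, and the call was kept in all 17 alternatives. The receptor-activated SMAD2 and SMAD3 genes overlapped between genotypes. Smad2 was at 71.4, 73.2 and 70.8 CPM in the WT libraries, and at 72.7, 73.6 and 75.3 in those with Ythdf2-KO, a log2 fold change of 0.041 (95% interval -0.021 to 0.10; edgeR adjusted p = 0.289). Smad3 was at 49.1, 48.4 and 47.2 CPM in the WT libraries, and at 48.4, 48.2 and 50.3 in those with Ythdf2-KO, a log2 fold change of 0.024 (95% interval -0.049 to 0.097; edgeR adjusted p = 0.625). For both, the interval leaves room for changes of about 0.1 on the log2 scale and excludes any of the size seen for Smad7. The log2 ratio of Smad3 to Smad2 counts was -0.57 ± 0.030 in WT and -0.59 ± 0.014 in Ythdf2-KO (SD, n = 3; exact two-sided permutation p = 0.5, adjusted 0.5).

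Smad4, the common partner of the receptor-activated SMADs, was at 86.7, 88.1 and 84.9 CPM in the WT libraries, and at 78.2, 82.1 and 82.6 in those with Ythdf2-KO. The groups did not overlap. The log2 fold change was small, -0.096 ± 0.030 (SE; edgeR adjusted p = 0.00637). The call was lost in 4 of 17 alternatives: with upper-quartile scaling (-0.042), with no filter (-0.076), without WT replicate 2 (-0.073) and without Ythdf2-KO replicate 1 (-0.071).

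**Figure D3:**
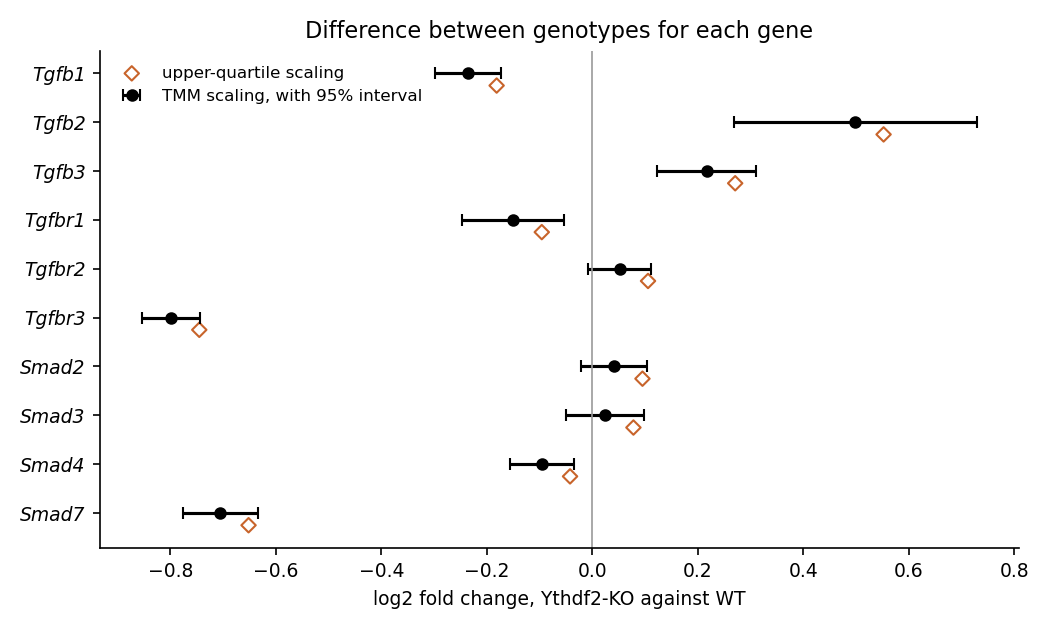
Log2 fold change of each gene, Ythdf2-KO against WT, with its 95% interval from edgeR under TMM scaling (black) and its value under upper-quartile scaling (open diamonds). Tgfbr3 and Smad7 lie at -0.80 and -0.71, Tgfb2 at 0.50, and the small differences of Tgfbr1, Tgfbr2, Smad2 and Smad4 change their call with the scaling.

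Scaling bears on the members near 0. With TMM factors 48.3% of all calls were for genes higher in Ythdf2-KO, and with upper-quartile factors 59.2%; the members called went from 2 higher and 5 lower to 4 higher and 3 lower. Tgfb1, Tgfb2, Tgfb3, Tgfbr3 and Smad7 kept direction and call under every scaling tried.

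Per kb of transcript, Tgfb1 was the most abundant of the 10 in both genotypes, at 64.9 ± 3.01 CPM per kb in WT and 55.1 ± 2.07 in Ythdf2-KO (SD, n = 3), and Tgfb2 the least, at 0.751 ± 0.0863 and 1.06 ± 0.0931. The size of the Tgfb1 lead depended on the length used. Per kb of all exon bases, Tgfb1 averaged 28.02 CPM per kb in WT, against 25.03 for Tgfbr3. In Ythdf2-KO it averaged 23.78, against 21.82 for Smad4. Tgfb1 thus remained first by that length too, but by a small margin. Per kb of the longest coding transcript, the WT order was Tgfb1, Tgfbr3, Smad4, Smad7, Tgfbr2, Smad3, Tgfb3, Smad2, Tgfbr1 and Tgfb2. Library ranges of neighbours overlapped only for Smad3 with Tgfb3 and for Tgfb3 with Smad2, all near 9 CPM per kb. In Ythdf2-KO, Tgfbr3 stood below Smad4, at 15.5 ± 0.509 CPM per kb against 26.9 ± 0.640 in WT. Smad7 stood below Tgfbr2 and Tgfb3, at 9.67 ± 0.137 against 15.8 ± 0.485, and its libraries overlapped with those of Smad3. In WT, Smad7 was thus above both receptor-activated SMAD genes in every library.

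**Figure D4:**
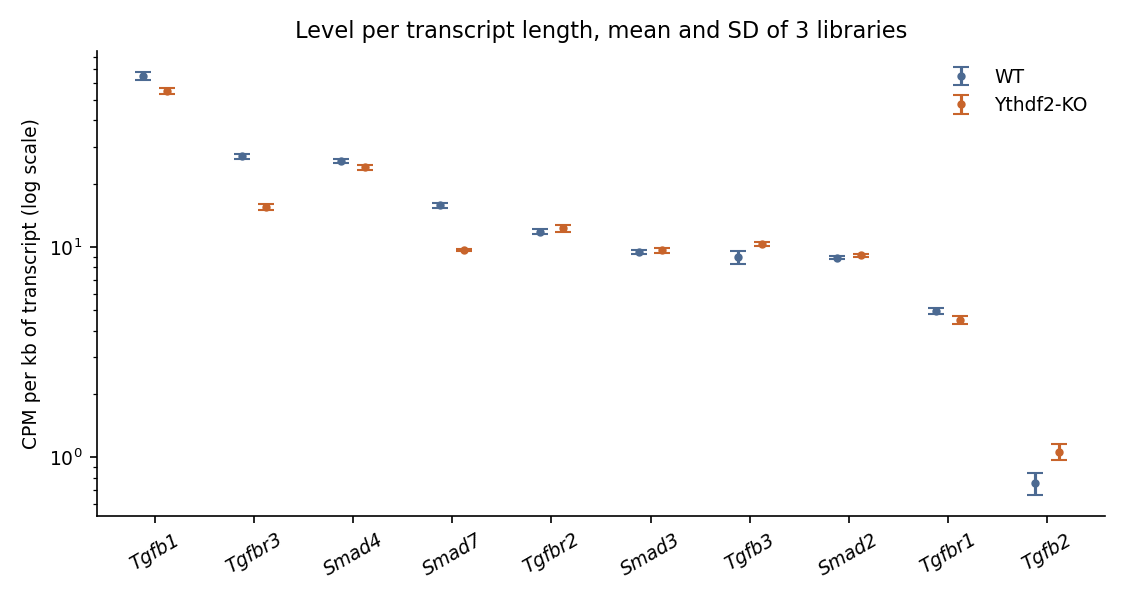
TMM-scaled CPM per kb of the longest coding transcript, on a log axis, as mean ± SD of 3 libraries, in the WT order. Tgfb1 is highest at 64.9 and 55.1 and Tgfb2 lowest at 0.751 and 1.06, and Tgfbr3 and Smad7 show the widest gaps between the genotypes. The lead of Tgfb1 is much smaller per kb of all exon bases, which is not drawn.

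The GGACU sequence (GGACT in the DNA letters searched, sense strand only), a common context of m6A, was present in the longest coding transcript of all 10 members and in 86.0% of tested genes with a transcript in GENCODE M21. It occurred 2.30 times per kb in Tgfb1, 0.977 in Tgfb2 and 1.18 in Tgfb3. Among the receptors the values were 0.521 in Tgfbr1, 1.24 in Tgfbr2 and 0.986 in Tgfbr3. Among the SMADs they were 0.742 in Smad2, 0.393 in Smad3, 1.18 in Smad4 and 0.935 in Smad7. The median was 0.982 per kb over the members and 1.01 over tested genes. Methylation was not measured, so these are letters and not sites.

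The other genes of the pathway were read from 5 lists with 77 genes outside the members. Of 69 tested, 22 (31.9%) were called higher and 26 (37.7%) lower, against 24.1% and 25.8% of all tested genes, and the median log2 value was -0.025. The list counts below stand against the same background of 49.9% called in either direction. That background was larger with the filter at a mean of 5 CPM, as given above. The shares nearest to 49.9% were in co-receptors and receptor regulators (33.3% higher, 26.7% lower) and the activin and nodal branch (0% higher, 37.5% lower).

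**Figure D5:**
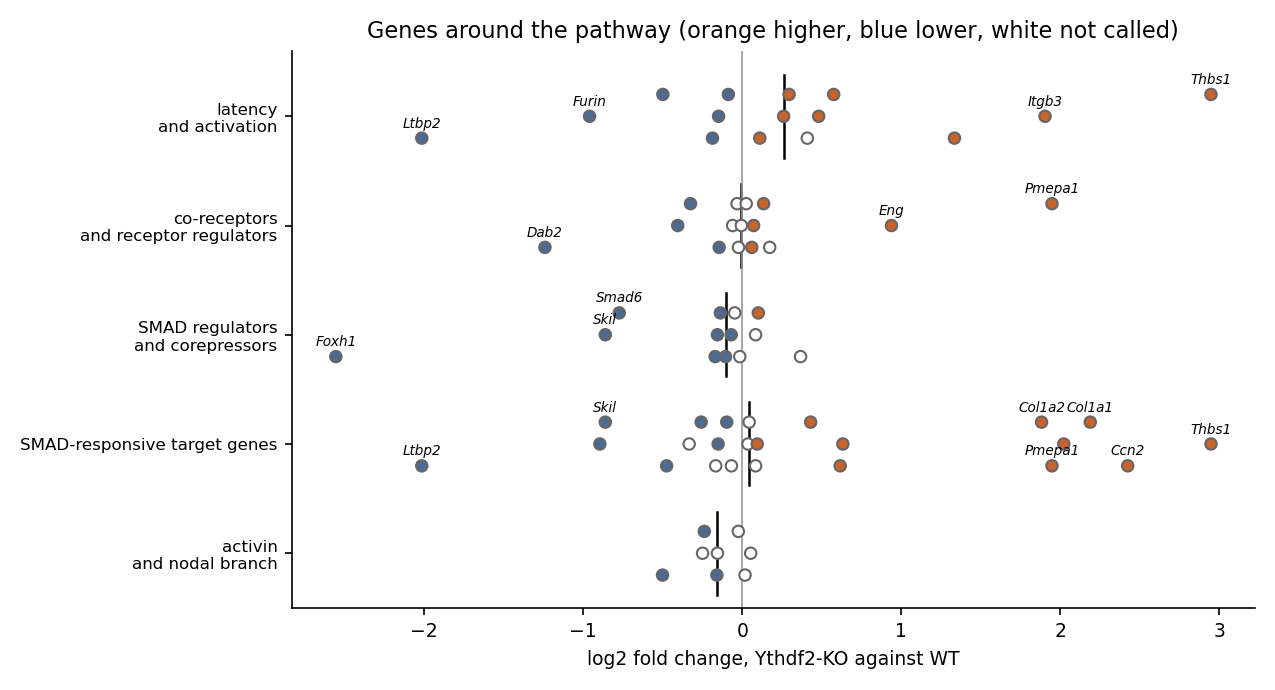
Log2 fold change of each tested gene of the 5 lists, Ythdf2-KO against WT; orange points were called higher, blue lower and white not called, and black lines are list medians. Latency genes spread from -2.02 for Ltbp2 to 2.95 for Thbs1, and the SMAD regulators lie mostly below 0.

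Genes for the latency and activation of TGF-beta were nearly all called: 8 of 15 tested rose and 6 fell, and the median log2 value was 0.26. Thbs1, whose product thrombospondin 1 can release active TGF-beta from its latent form, stood at 23.9, 20.4 and 21.7 CPM in the WT libraries, and at 171, 168 and 169 in those with Ythdf2-KO, a log2 fold change of 2.95 ± 0.036 (SE; edgeR adjusted p = 1.70e-38). Ltbp1, which encodes a protein that anchors latent TGF-beta in the matrix, rose from 229 ± 0.878 to 340.4 ± 4.11 CPM (SD, n = 3), and Ltbp3, of the same family, rose by only 0.11 on the log2 scale. Ltbp2, a relative that does not bind latent TGF-beta, fell from 13.1 ± 1.33 to 3.25 ± 0.687 CPM. Furin, which encodes the protease that cleaves the propeptide, fell 1.95-fold, from 744 ± 12.8 to 382 ± 8.998 CPM. The integrin chain gene Itgb3 rose 3.74-fold from 1.74 ± 0.149 CPM, and its partner Itgav fell by 0.088 on the log2 scale, a call lost with upper-quartile scaling (-0.034).

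Co-receptors and receptor regulators went both ways, with 5 of 15 higher and 4 lower and a median log2 fold change of -0.0059. Eng, which encodes the co-receptor endoglin, a relative of betaglycan, rose 1.92-fold, from 38.4 ± 0.418 to 73.6 ± 3.58 CPM (SD, n = 3), against the fall of Tgfbr3. Dab2, an adaptor that links the receptors to SMADs and to endocytosis, fell 2.36-fold, from 158 ± 2.78 to 66.8 ± 0.977 CPM. Acvrl1, a type I receptor better known from endothelium, fell 1.33-fold from 127 ± 4.23 CPM. The ubiquitin ligase gene Smurf1, which acts with SMAD7 on the receptors, fell 1.25-fold from 226.5 ± 1.22 CPM, and its paralog Smurf2 was at 60.6 ± 1.51 and 60.3 ± 1.74 CPM and did not pass (edgeR adjusted p = 0.907). Pmepa1, a feedback inhibitor, rose 3.86-fold but only to 0.509 ± 0.0665 CPM. Its WT libraries held 4, 6 and 15 counts, and without WT replicate 3 its log2 fold change went from 1.95 to 2.60. Nedd4l fell, and Tgfbrap1, Usp15 and Usp4 rose by at most 0.13 on the log2 scale; these 4 were named after their values were seen. The 5 higher calls became 3 with the replicate block, with offsets for length and GC, at an adjusted p under 0.01, without WT replicate 3, without Ythdf2-KO replicate 1 or 3 and without replicate 3 of both genotypes.

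SMAD regulators and corepressors were mostly lower: 8 of 13 fell and 1, Wwp1, rose, and the median log2 value was -0.11. The higher count was 0 to 2 over the alternatives, and 0 without Ythdf2-KO replicate 2. Wwp1, a ubiquitin ligase gene named after its values were seen, rose by 0.10 on the log2 scale. Skil, which encodes the corepressor SnoN and is itself induced by SMADs, fell from 84.0, 84.3 and 81.2 CPM in WT to 44.4, 47.2 and 45.8 CPM in Ythdf2-KO, by 0.86 on the log2 scale (edgeR adjusted p = 6.03e-26). Smad6, the inhibitory SMAD of the BMP branch, fell from 21.3, 19.2 and 17.7 CPM to 10.8, 10.9 and 12.3 CPM (log2 fold change -0.77 ± 0.070, SE; edgeR adjusted p = 5.63e-13). Both inhibitory SMAD genes were thus lower in every Ythdf2-KO library. Ppm1a and Trim33, a phosphatase and a ubiquitin ligase that act on SMADs, fell by 0.17 and 0.16 on the log2 scale. The corepressor gene Ski fell by 0.070 (edgeR adjusted p = 0.0337), but its groups overlapped and its call was lost in 13 of 17 alternatives; over all 17 its log2 fold change ranged from -0.12 to -0.016. The activator gene Foxh1, named after its values were seen, had 12, 11 and 24 counts in WT and 0, 4 and 4 in Ythdf2-KO.

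SMAD-responsive target genes split: 10 of 23 tested rose and 7 fell, and the median log2 value was 0.043. The 3 matrix genes named here rose. Col1a1 rose 4.56-fold from 42.5 ± 2.30 CPM and Col1a2 3.69-fold from 2.46 ± 0.199 CPM, chains of type I collagen, and Fn1, which encodes fibronectin, rose 1.53-fold from 9170.0 ± 185 CPM (SD, n = 3). Ccn2, which encodes a matricellular growth factor and is also a target of YAP, rose 5.36-fold, but from 0.214 ± 0.0297 to 1.17 ± 0.0966 CPM. Tgfbi averaged 0.376 ± 0.0682 CPM (WT) and 0.299 ± 0.0696 CPM (Ythdf2-KO), and its difference did not pass (edgeR adjusted p = 0.524). Thbs1 and Ltbp2 belong to this list and to the latency list, and Skil and Pmepa1 to this list and another.

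The activin and nodal branch, which also signals through SMAD2 and SMAD3, was sparsely expressed, with 8 of 15 genes tested. None rose, 3 fell and the median log2 fold change was -0.16. Those that fell were Fstl3, which encodes an activin-binding inhibitor (from 10.98 ± 1.33 to 7.74 ± 0.313 CPM, SD, n = 3), the type I receptor gene Acvr1b, by 0.24 on the log2 scale, and the ligand gene Gdf11, by 0.16. The count of higher genes was 0 in edgeR, also at an unadjusted p under 0.05, and 0 by DESeq2 and by limma-voom.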

How the data were processed

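Counts per gene symbol were used for 6 libraries of polyadenylated RNA, which the labels' protocols say were made with a KAPA RNA HyperPrep kit and sequenced from both ends. The authors, per the submitters' processing notes, used fastp 0.23.2, HISAT2 2.2.1 and featureCounts 2.0.6 with GRCm39; the deposited values are whole, unnormalized counts. The strand, multimapping and read-pair settings were not stated in the labels. Columns were matched to samples by the identifiers in the labels.

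Genes were kept by filterByExpr in edgeR 4.0.16 (R 4.3.3) and scaled by TMM factors of 0.981 to 1.02. A robust quasi-likelihood fit tested Ythdf2-KO against WT, and p-values were adjusted by Benjamini-Hochberg over all 17718 genes. Standard errors were the log2 fold change over the root of the F statistic. Levels are means ± SD. Transcript lengths and motif counts came from GENCODE M21 and windows from RefSeq, both on GRCm38, joined by symbol; 94.4% of tested genes had a transcript. Alternatives included DESeq2 1.42.0 and limma 3.58.1 (voom). The fit was also run on simulated data in which few genes changed, whereas 49.9% of tested genes were called here. That run therefore does not check the fit at this share of calls.

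The members and lists were chosen with earlier results of these data known. Besides the members, the named genes were Ythdf2, up to 4 called genes per list with the largest log2 fold change and a mean of at least 5 CPM in the higher genotype, and 15 further pathway genes listed with the design; the text marks others. Some of the named and marker genes are not reported here.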

Additional observations from a re-analysis of the deposited data

How the results depend on the processing

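Over 17 alternative analyses and the ligand lengths, 929 values were recomputed. Of these, 761 for single genes and lists and 116 for the main results counted as the same. For a single gene this meant the same direction and side of the threshold. For a count of genes it meant a change of at most 1.5 times, so 2 and 3 members higher counted as the same. For a share or ratio it meant the same direction only. Calls of single genes were lost in 20 cases and gained in 4, and 15 counts for lists moved by over 1.5 times. With upper-quartile factors the members called were 4 higher and 3 lower, the median log2 fold change of all tested genes moved from -0.0053 to 0.049, and Smad2 passed as higher (0.095, edgeR adjusted p = 0.0067). Leaving out 1 library at a time gave 2 to 3 members higher and 4 to 5 lower. The direction turned for genes near 0 that did not pass in any of these: Smurf2, at -0.0059, was 0.0024 with RLE factors, 0.048 with upper-quartile factors, 0.00055 with scaling that left out the most abundant and the mitochondrial genes, 0.014 with no filter, 0.018 with a filter at a mean of 5 CPM, 0.0025 with DESeq2 and 0.0074 with offsets for length and GC, and ranged from -0.028 to 0.018 with a replicate left out. Smad3 was -0.012 without replicate 3 of both genotypes. The cause was not tested.

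Tgfb2 was not tested with the 5 CPM filter, where 9 members remained and Tgfbr2 passed as higher. The replicate block gave 2 members higher and 5 lower, and 4132 and 4409 of all genes against 4270 and 4569 without it. Same-numbered libraries had correlations of 0.011, -0.037 and -0.052 between their deviations from the group means. The labels do not say whether same-numbered libraries were prepared together, and 3 libraries a genotype are too few for these values to decide it. The block lowered the higher calls among co-receptors and receptor regulators from 5 to 3. The Tgfb1 share difference was -5.83 percentage points from counts not divided by length, and -4.43 to -3.90 with a replicate left out. A count of 3 corresponds to 0.0433 to 0.0540 CPM, which limits what can be said of genes such as Pmepa1 and Tgfbi in WT but not of the members.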
